A study of Mus musculus with 16 samples.

Results

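Marginal zone (MZ) B cells were identified in the spleens of naive mice, and their transcriptome was compared with that of the other B cells of the same spleens. The cells were chosen by their transcripts alone. A spleen cell was counted as a B cell when it held at least 2 unique molecular identifiers (UMIs, each 1 captured RNA molecule) of Cd79a and Cd79b together and no UMI of the T cell genes Cd3e, Cd3d, and Cd3g or of the myeloid gene Lyz2. A B cell was counted as an MZ B cell when it held UMIs of at least 2 of the 6 genes Cr2, Cd1d1, Dtx1, S1pr3, Cd9, and Tm6sf1 and no UMI of Fcer2a or Cd93. Of 47060 CD45+ spleen cells, 28412 were B cells by this rule, and 4253 of these were MZ B cells. The comparison class was the 16755 B cells with at least 1 UMI of Fcer2a, which encodes the follicular B cell receptor CD23, and none of Cd93 (Fcer2a+ B cells). A second comparison class was the 756 B cells with a UMI of Cd93, a receptor of newly formed B cells (Cd93+ B cells); 57.0% of these also held an Fcer2a UMI. The remaining 6648 B cells had neither of these UMIs and fewer than 2 of the 6 genes.

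The study followed mouse kidney allografts. DBA/2J kidneys were accepted by C57BL/6J (B6) recipients and were sampled 1, 3, and 24 weeks after transplantation, whereas B6 kidneys placed in DBA/2J mice were rejected and were sampled at 1 week. The spleens described here came from untreated WT C57BL/6J mice that received no graft, and the study used male mice; the age of these mice was not given in the sources used here. Red cells were lysed, viable CD45+ cells were sorted, and single-cell libraries were made with a 10x Genomics 3′ kit. Barcode prefixes divided the matrix into 5 libraries. By the study's methods each mouse was a separate sample, but the sources used here do not tie these 5 libraries to mice, so every p value below measures only the spread between libraries, which may be technical. The libraries held 30054753 to 37016197 UMIs, with a median of 2716 to 3372 UMIs per cell. Some 238 barcodes occurred in more than 1 library and covered 477 cells, 48 of them MZ B cells, and the prefix kept these cells apart.

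MZ B cells line the marginal sinus of the spleen, where blood-borne particles first meet lymphoid tissue. They carry high levels of the complement receptor CD21 and of the lipid-presenting molecule CD1d, little CD23, and much IgM relative to IgD, and they respond fast to blood-borne microbes. Their formation depends on Notch2 in the B cell and its ligand DLL1 on stromal cells, and their position depends on sphingosine-1-phosphate (S1P) receptors and integrins.

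The 6 genes that selected the cells are spread over the genome (GRCm38, GENCODE annotation): Cr2, which encodes CD21, lies at chr1:195136811-195176716, Cd1d1 at chr3:86995834-86999441, the Notch target Dtx1 at chr5:120680202-120711927, the S1P receptor gene S1pr3 at chr13:51408639-51422797, the tetraspanin gene Cd9 at chr6:125460266-125494791, and Tm6sf1 at chr7:81859001-81884434. Because these genes chose the cells, their levels are given as a description and were not tested. Counts were summed over the cells of a class in each library and are given as CPM, the count divided by all UMIs of the class and library and scaled to 1e6, as mean ± SD over the 5 libraries. Cr2 stood at 1108 ± 94.4 CPM in MZ B cells, 509 ± 45.9 in Fcer2a+ B cells, 346 ± 43.2 in Cd93+ B cells, and 4.50 ± 0.510 in T cells. Dtx1 stood at 335 ± 22.7 CPM in MZ B cells and 94.5 ± 14.5 in Fcer2a+ B cells, and Tm6sf1 at 372 ± 19.4 and 139.7 ± 13.9. Of the less abundant genes, S1pr3 stood at 75.9 ± 11.2 CPM against 9.77 ± 1.16, Cd9 at 75.0 ± 6.99 against 10.46 ± 3.00, and Cd1d1 at 83.6 ± 10.53 against 22.3 ± 2.61. T cells, which should lack the follicular and MZ programs, still had a Dtx1 UMI in 27.4% of cells, a Tm6sf1 UMI in 14.7%, and a Cd9 UMI in 11.0%, at a median of 3867 UMIs per cell. T cells had a Cr2 UMI in 1.73% of cells, against 92.0% of MZ B cells (median 3536 UMIs) and 59.1% of Fcer2a+ B cells (median 2685 UMIs).

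**Figure D1:**
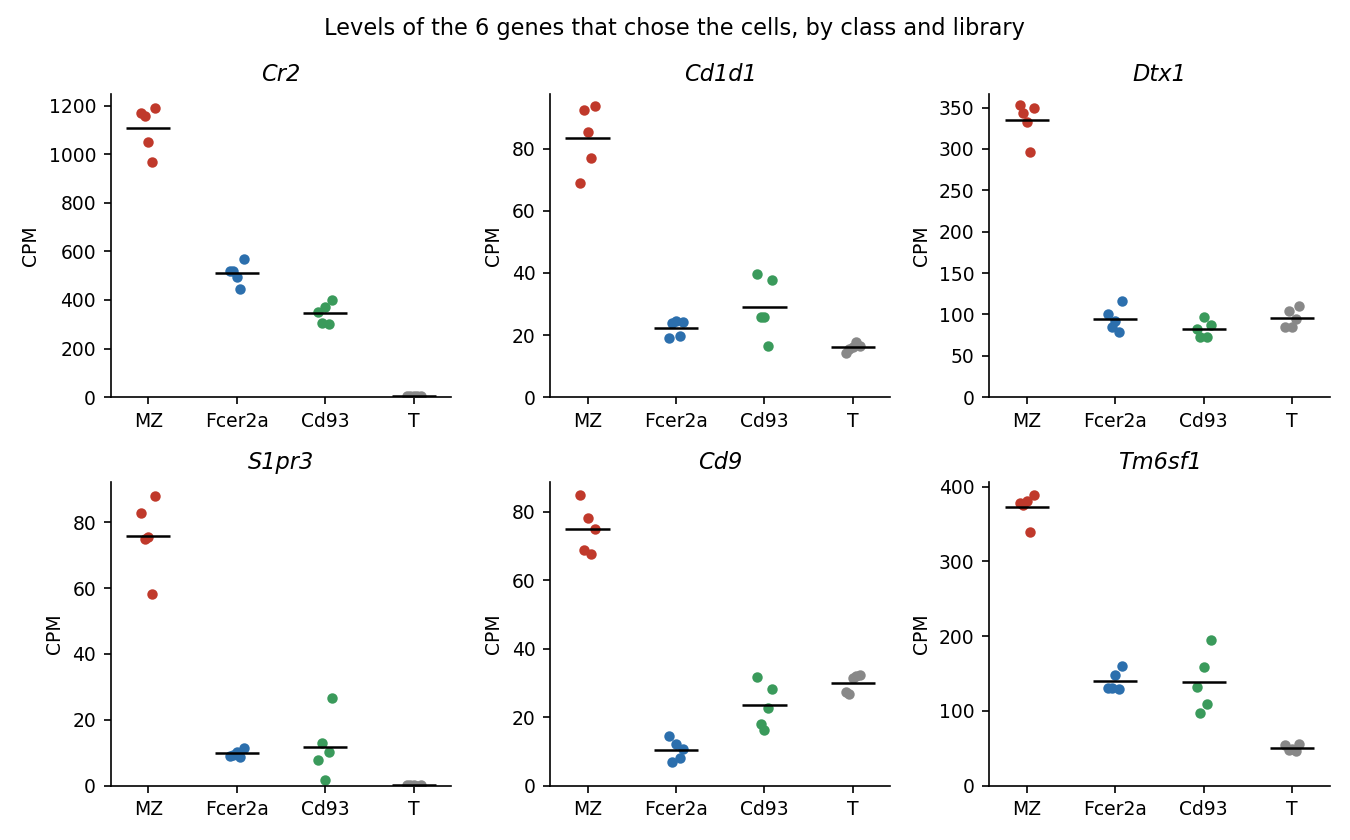
Levels (CPM) of the 6 genes that chose the MZ B cells, in MZ B cells (red), B cells with an Fcer2a UMI (blue), B cells with a Cd93 UMI (green), and T cells (gray). Each point is 1 of 5 libraries and each line is the mean; in every panel the 5 MZ points lie above all other points, which the choice of cells fixes.

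The commonest ways to meet the rule used the 3 most abundant genes. Some 769 MZ B cells (18.1%) had Cr2 and Tm6sf1 only, 645 (15.2%) had Cr2 and Dtx1 only, 636 (14.95%) had Cr2, Dtx1, and Tm6sf1, and 82 (1.93%) had all 6 genes. The class was therefore described with genes that the rule did not use. Their lists were drawn up with earlier results of these data known, so they are no independent check of the label. A list of 20 further MZ genes, such as Plac8, Myof, Fcrl5, Mzb1, and Cd36, and a list of 14 follicular genes, such as Ccr7, Klf2, Cd55, and Ighd, were summed in B cells without Fcer2a or Cd93 UMIs that held 0 to 6 of the selecting genes. The summed MZ genes stood at 1888 ± 53.1 CPM with none of the 6 genes, 1969 ± 133 with 1 gene (3489 cells, just outside the threshold), 2641 ± 214 with 2 genes (1891 cells, just inside it), 4059 ± 276 with 3, 4924 ± 133 with 4, 5385 ± 168 with 5, and 5554 ± 197 with all 6. The summed follicular genes stood at 5906 ± 204 CPM with none, 5379 ± 284 with 1, 4394 ± 251 with 2, 3325 ± 179 with 3, and 2394 ± 271 with all 6. Cells with 2 genes thus stood nearer to cells with 1 gene than to cells with 3, and cells with 3 or more genes carried the MZ pattern. Deeper cells show more genes, and median depth rose from 2202 UMIs with none of the 6 genes to 5296 with all 6. Within cells of 2000 to 5000 UMIs the summed MZ genes kept the same steps, with 2402 ± 381 CPM at 2 genes, 3994 ± 279 at 3, and 5080 ± 113 at 4.

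**Figure D2:**
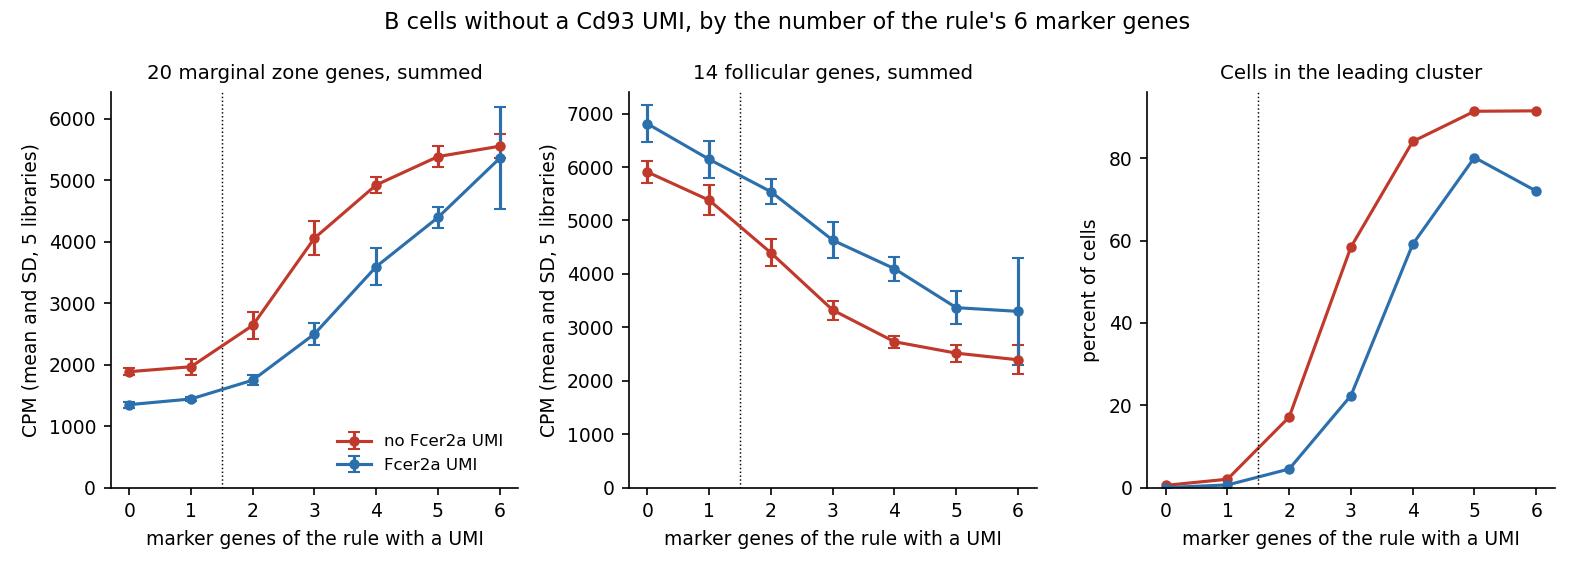
Summed level (CPM, mean and SD of 5 libraries) of 20 MZ genes and of 14 follicular genes outside the rule, and the percent of cells in the leading cluster, against the number of the 6 selecting genes with a UMI, in B cells with (blue) and without (red) an Fcer2a UMI and none of Cd93; the dotted line marks the threshold of the rule. The MZ sum rises most between 2 and 3 genes in cells without an Fcer2a UMI, from 2641 to 4059 CPM.

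Clustering gave similar steps by the number of genes, but these shares were not matched for depth. All 28412 B cells were clustered after the rule's genes and the immunoglobulin, mitochondrial, and ribosomal protein genes had been left out. Of 15 clusters, 1 cluster of 3022 cells held 48.6% of the MZ B cells (44.7% to 53.5% per library), and MZ B cells made up 68.5% of it. The same cluster held 4.97% of the Fcer2a+ B cells, 3.84% of the Cd93+ B cells, and 1.38% of the remaining B cells. Among cells without Fcer2a or Cd93 UMIs, 17.2% of those with 2 of the 6 genes lay in this cluster, against 58.4% with 3, 84.0% with 4, and 91.5% with all 6. The class is thus a mixture: most cells with 3 or more genes lay in this cluster, and most cells with only 2 genes did not. This cluster was picked because it held the most MZ B cells. It shows likeness among them and cannot check the label. The reverse held for Fcer2a, since 59.1% of Fcer2a+ B cells with 4 of the 6 genes lay in the same cluster. A missing Fcer2a UMI is also a matter of depth, because only 82.1% of Fcer2a+ B cells kept one when thinned to 2000 UMIs. Results below are therefore also given for MZ B cells with at least 3 genes and for cells of matched depth where those values changed a statement.

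MZ B cells made up 14.9 ± 2.44% of the B cells (SD, 5 libraries) and 9.01 ± 1.44% of the CD45+ cells. Their share of B cells was 16.7%, 13.0%, 16.4%, 11.5%, and 16.7% in libraries 1 to 5, with exact 95% binomial intervals from 10.6% to 12.4% in library 4 and from 15.8% to 17.7% in library 1, so that the libraries differed by more than counting error. Over all libraries the share was 14.97% (exact 95% interval 14.6% to 15.4%). With at least 3 of the 6 genes it was 8.31%. As the share rests on sorted, dissociated cells, it is a share of captured cells and not of the organ. Rejecting kidney grafts held few B cells: 29 of 11948 CD45+ cells were B cells by the same rule, and 1 of these met the MZ rule (3.45%, exact 95% interval 0.0873% to 17.8%).

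UMIs of other cell types were counted in the same classes. In the test described below, 17.0% of all genes tested were higher and 21.5% lower in MZ B cells than in Fcer2a+ B cells. The summed level of 8 NK cell genes was 246 ± 123 CPM in MZ B cells (94.2 to 431 per library) and 105.9 ± 32.7 in Fcer2a+ B cells. All 8 of 8 NK genes passed the test as higher in MZ B cells, among them the granzyme gene Gzma, which had a UMI in 70 MZ B cells (1.65%) and in 140 Fcer2a+ B cells (0.836%); without library 1, which had the highest NK level, 5 of 8 passed. Against Fcer2a+ B cells with at least 2 of the 6 genes 4 of 8 were higher, and 3 of 8 against all other B cells with an Fcer2a UMI, those with Cd93, Cd3, or Lyz2 UMIs included, where the median log2 fold change was 0.36 in place of 1.02. Of 4 neutrophil genes tested, 3 were higher (summed level 106 ± 120 against 36.7 ± 52.9 CPM), and 10 cells carried 82.5% of the S100a8 UMIs of the MZ class. With DESeq2 or without the library block, 1 of the 4 was higher, and against that wider class 3 of 5 were lower and 0 higher. Among 9 myeloid genes, 6 were higher (66.7%) and 2 lower (22.2%, near the share over all genes). Their summed levels were 685 ± 56.0 and 672 ± 17.1 CPM, and against the wider class 1 was higher and 2 lower. The wider class keeps cells with Cd3 or Lyz2 UMIs, which the rule bars from MZ B cells. Against it 10 of 10 T cell genes were lower, so counts against this class follow in part from the gate. The 6 T cell genes tested did not pass in either direction (50.1 ± 7.37 against 46.6 ± 9.29 CPM), and no platelet gene was abundant enough to test. The 4 erythroid genes tested were lower, at summed levels of 675 ± 1063 against 845 ± 1317 CPM, most of it in libraries 1 and 3, at 2449 and 895 CPM in MZ B cells, against 7.64 to 12.0 CPM in the other libraries. With DESeq2 or without the library block 0 of the 4 passed, and with cells thinned to 2000 UMIs 2 of 3 were higher. Of 4 genes of plasmacytoid dendritic cells, 1 was higher (25%, beside 17.0% over all genes). Each comparison below was repeated without the cells that held a UMI of selected NK, myeloid, neutrophil, platelet, or plasma cell genes or at least 5 Jchain UMIs, which left 3590 of the 4253 MZ B cells and 14887 of the 16755 Fcer2a+ B cells. Cells with T cell, erythroid, or plasmacytoid dendritic cell UMIs were kept in that repeat, and 4 erythroid genes could still be tested there, all of them lower.

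The main comparison asked how MZ B cells differed from Fcer2a+ B cells of the same library. The counts of each class were summed per library and tested with edgeR's quasi-likelihood test with the library as a block and Benjamini-Hochberg adjustment over all 10615 genes tested. At an adjusted p below 0.05, 1809 genes (17.0%) were higher and 2282 (21.5%) were lower in MZ B cells, and 362 (3.41%) and 122 (1.15%) of these differed by at least 2-fold. The large changes were thus mostly gains in MZ B cells, whereas small decreases were common. For the follicular list the median log2 fold change was -0.91, and -1.26 in MZ B cells with at least 3 of the 6 genes. For the MZ list it was 1.53, and 1.80 in those cells. The class is a mixture, and the part of this mixing in the sizes of the changes was not tested. With TMM scaling, which moved the median of all genes from -0.03 to 0.01, 2076 genes were higher and 1870 lower, and with DESeq2 1253 were higher and 1159 lower, so the balance of the directions depended on the scaling and the tool. Against the 5301 Fcer2a+ B cells that also held at least 2 of the 6 genes, 1005 genes were higher and 1291 lower. Without the cells removed above for UMIs of NK, myeloid, neutrophil, platelet, or plasma cells, 1567 genes were higher and 2118 lower, and 19 of the 20 MZ genes described below were still higher. In bulk sums of this kind, fewer cells with a transcript and less transcript per cell cannot be told apart.

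**Figure D3:**
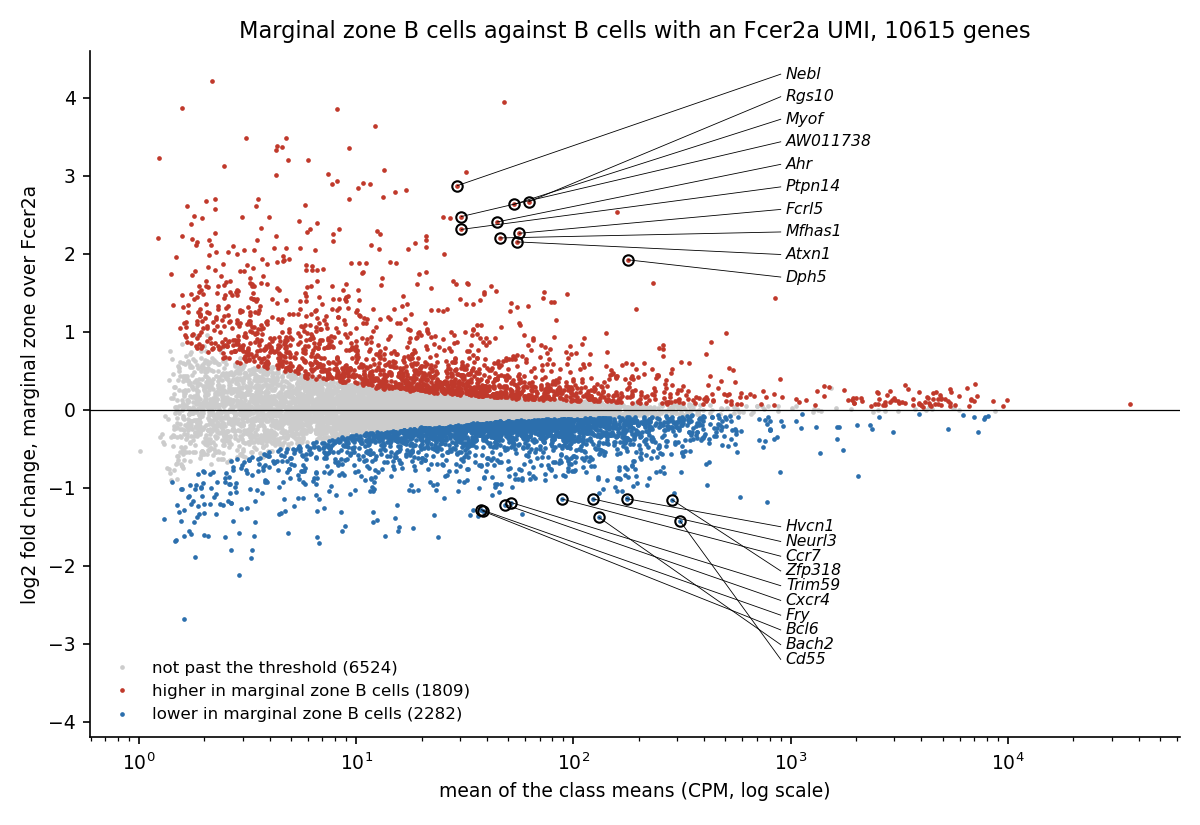
Log2 fold change of MZ over Fcer2a+ B cells against mean level (CPM, log axis) for the 10615 genes tested. Red and blue points are the 1809 higher and 2282 lower genes, gray points did not pass, and circles mark the 10 named genes in each direction, which reached 50 CPM and changed in the same direction in all 5 libraries.

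Among genes of at least 50 CPM, the largest increases in MZ B cells were in the actin-binding nebulette gene Nebl, the G protein regulator Rgs10, the membrane repair gene Myof, AW011738, the aryl hydrocarbon receptor Ahr, the phosphatase gene Ptpn14, the immunoglobulin receptor-like gene Fcrl5, Mfhas1, Atxn1, and the diphthamide synthesis gene Dph5. Rgs10 (chr7:128373621-128418758) stood at 106, 101.3, 98.2, 116, and 117 CPM in MZ B cells of libraries 1 to 5 and at 20.3, 14.4, 16.4, 13.7, and 20.3 CPM in Fcer2a+ B cells. The lowest MZ value was several times the highest Fcer2a+ value, and the difference was 6.34-fold (log2 fold change 2.67 ± 0.07 SE, edgeR adjusted p = 1.00e-21). For Myof (chr19:37899036-38043577) the values were 100.1, 90.5, 85.4, 86.5, and 95.2 CPM against 13.6, 15.4, 16.3, 11.5, and 16.6 CPM, a 6.19-fold difference (log2 fold change 2.63 ± 0.07 SE, edgeR adjusted p = 1.28e-21). A Myof UMI was found in 24.8% of MZ B cells, 3.65% of Fcer2a+ B cells, and 0.233% of T cells, and in 14.95%, 2.12%, and 0.0767% after thinning to 2000 UMIs per cell. Fcrl5 (chr3:87435773-87500678), which marks innate-like B cells, stood at 93.04, 110.4, 95.9, 90.0, and 76.7 CPM in MZ B cells and at 21.8, 23.6, 19.4, 15.2, and 17.4 CPM in Fcer2a+ B cells (log2 fold change 2.26 ± 0.06 SE, edgeR adjusted p = 3.85e-21). Nebl differed 7.32-fold, Ahr 5.30-fold, and Dph5, the most abundant of the 10 genes at 282 ± 36.9 CPM, 3.79-fold. None of these genes was used to choose the cells, but they were named for the size of their change, so their ranges over the libraries are a description.

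Genes of the MZ list rose in MZ B cells. Of its 20 genes, 19 were higher (95%, beside 17.0% over all genes), and none was lower. The median log2 fold change was 1.53, beside -0.03 over all genes tested. Plac8, a cysteine-rich protein gene abundant in MZ B cells, stood at 1282, 1147, 1262, 1245, and 1247 CPM against 477, 410.0, 512, 435, and 464 CPM (log2 fold change 1.43 ± 0.03 SE, edgeR adjusted p = 1.01e-25). Marcks, a protein kinase C substrate, was 3.09-fold higher, the scavenger receptor gene Cd36 2.99-fold, the semaphorin gene Sema7a 4.17-fold, and the RNase gene Zc3h12c 5.52-fold. Mzb1, an endoplasmic reticulum cochaperone needed for IgM secretion, stood at 672 ± 62.2 against 339 ± 32.7 CPM (1.98-fold). The single gene of the list that did not pass was Notch2, at 60.8 ± 6.95 CPM in MZ B cells and 66.1 ± 7.10 in Fcer2a+ B cells (log2 fold change -0.11 ± 0.06 SE, edgeR adjusted p = 0.166). Within cells of 2000 to 5000 UMIs, 18 of 19 tested genes of the list were higher, and against Fcer2a+ B cells with at least 2 of the 6 genes, 19 of 20 were higher with a median of 0.97.

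**Figure D4:**
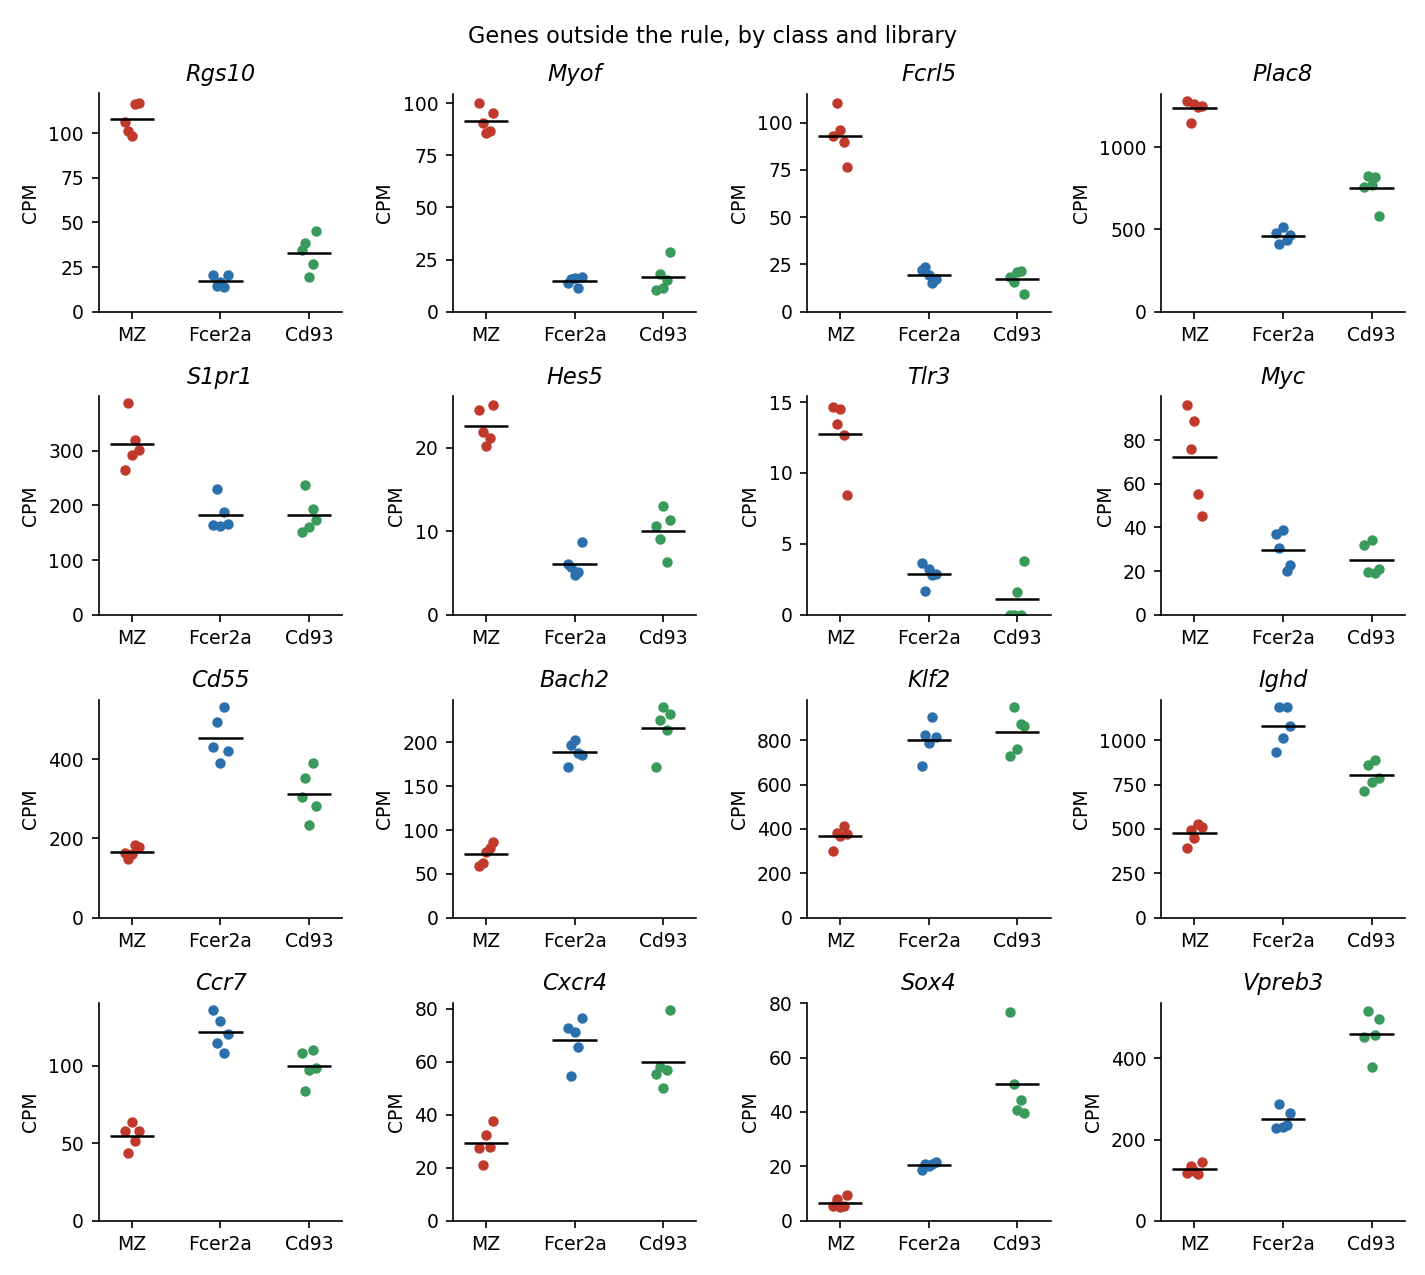
Levels (CPM) of named genes outside the rule in each of 5 libraries, for MZ B cells, B cells with an Fcer2a UMI, and B cells with a Cd93 UMI; each point is 1 library and each line the mean. MZ genes such as Plac8 and Myof lie apart from both other classes, and follicular genes such as Cd55 and Klf2 lie below them in MZ B cells.

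Follicular genes fell in MZ B cells. Of 14 genes on the list, 13 were lower (92.9%, beside 21.5% over all genes) and none was higher. The median log2 fold change was -0.91, beside -0.03 over all genes tested. With at least 3 of the 6 genes, with cells thinned to 2000 UMIs, or with TMM scaling, 13 follicular genes were lower and 1 was higher. Within cells of 2000 to 5000 UMIs, 12 were lower and 1 was higher. Cd55 (chr1:130439027-130462744), which protects cells from complement, stood at 163, 149, 161, 184, and 178 CPM in MZ B cells and at 432, 495, 390.3, 531, and 421 CPM in Fcer2a+ B cells, 2.69-fold lower (log2 fold change -1.43 ± 0.04 SE, edgeR adjusted p = 2.29e-20). Bach2 (chr4:32238804-32586108), a repressor that holds B cells back from plasma cell differentiation, was 2.60-fold lower (log2 fold change -1.38 ± 0.05 SE, edgeR adjusted p = 6.91e-18). The homing receptor gene Ccr7 was 2.21-fold lower, and Klf2, a transcription factor that controls lymphocyte homing, stood at 302, 384, 368, 413, and 378 CPM against 684, 823, 789, 904, and 816 CPM (2.18-fold lower). A Klf2 UMI was found in 55.9% of MZ B cells and 80.1% of Fcer2a+ B cells, and in 41.3% and 70.7% after thinning, beside 63.2% of thinned T cells, which also express the gene. Cxcr5, the receptor that draws B cells to follicles, was the gene of the list that did not pass, at 126 ± 13.5 and 119 ± 7.97 CPM (log2 fold change 0.09 ± 0.05 SE, edgeR adjusted p = 0.151). Of the other genes among the 10 largest decreases, Bcl6 is the master regulator of germinal centers, Zfp318 controls the splicing of IgD, and Hvcn1 encodes a proton channel, and they were 2.46-, 2.22-, and 2.20-fold lower. Fry, Cxcr4, Trim59, and Neurl3 completed that group, with 2.21- to 2.43-fold decreases.

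Among immunoglobulin transcripts, Ighd was lower and Ighm slightly higher in MZ B cells. Ighd, the IgD constant gene, stood at 394, 492, 452, 526, and 511 CPM in MZ B cells and at 935, 1189, 1011, 1189, and 1082 CPM in Fcer2a+ B cells (log2 fold change -1.19 ± 0.02 SE, edgeR adjusted p = 4.55e-24). Ighm, the IgM constant gene, was 1.21-fold higher (log2 fold change 0.27 ± 0.04 SE, edgeR adjusted p = 1.10e-06), and its ranges of 3019.8 to 4522 and 2910.1 to 3344 CPM overlapped. The ratio of Ighm to Ighd UMIs was 7.66, 9.19, 9.43, 7.01, and 6.90 in MZ B cells of libraries 1 to 5 (8.04 ± 1.201) and 2.91 ± 0.231 in Fcer2a+ B cells. It was higher in 5 of 5 libraries (exact 2-sided paired permutation p = 0.0625, the smallest that 5 pairs allow; 0.125 after Benjamini-Hochberg adjustment over 4 such tests). In Cd93+ B cells it was 10.1 ± 2.42, and MZ B cells were higher in 1 of 5 libraries (exact permutation p = 0.125, adjusted 0.167). The lambda share of light chain constant UMIs was 30.3 ± 6.97% in MZ B cells and 26.6 ± 2.12% in Fcer2a+ B cells, higher in 3 of 5 libraries (exact permutation p = 0.25, adjusted 0.25). In Cd93+ B cells it was 14.5 ± 2.46%, and MZ B cells were higher in 5 of 5 libraries (exact permutation p = 0.0625, adjusted 0.125). Both ratios of the Cd93+ class include plasma cells. Immunoglobulin genes took 5.28 ± 1.30% of its UMIs, and 10 cells held 60.7% of its Jchain UMIs. The ratios were not repeated without such cells, so they may not describe newly formed B cells. The MZ class also held 14 cells with more than 4 Jchain UMIs, and its ratios were not repeated without them. Of 10 immunoglobulin constant genes, 5 were higher and 3 lower (50% and 30%, beside 17.0% and 21.5% over all genes). However, 10 cells held 98.2% of the Ighg2b UMIs of the class. The balance turned in other gates, with 2 higher and 6 lower of 9 in MZ B cells with at least 3 of the 6 genes, 2 and 4 of 8 within cells of 2000 to 5000 UMIs or with thinned cells, and 2 and 5 of 9 without the cells that held UMIs of other cell types.

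In the Notch pathway, the target genes Hes5 and Hes1 rose, whereas Notch2 did not pass the test. Of 27 genes, 7 were higher and 7 lower (25.9% each, beside 17.0% and 21.5% over all genes), with a median of 0.03; with TMM scaling the counts were 8 and 5, and with DESeq2 6 and 2. Hes5, a direct target of Notch and a transcriptional repressor, stood at 24.5, 21.9, 20.2, 21.2, and 25.1 CPM in MZ B cells and at 6.02, 5.73, 4.80, 5.09, and 8.72 CPM in Fcer2a+ B cells (log2 fold change 1.90 ± 0.12 SE, edgeR adjusted p = 1.19e-13). A Hes5 UMI was found in 7.59% of MZ B cells and 1.75% of Fcer2a+ B cells, and in 3.78% and 0.994% after thinning, beside 0.0596% of thinned T cells. Hes1, a second target, stood at 73.9, 113, 84.4, 83.3, and 74.7 CPM against 34.9, 56.5, 49.4, 40.9, and 43.1 CPM (log2 fold change 0.92 ± 0.05 SE, edgeR adjusted p = 4.49e-14). Rbpj, which encodes the DNA-binding partner of Notch, did not pass (log2 fold change 0.20 ± 0.09 SE, edgeR adjusted p = 0.058). The coactivator genes went opposite ways, with Maml2 at 0.43 ± 0.09 and Maml3 at -0.75 ± 0.09 on the log2 scale, and Lfng, a glycosyltransferase that modifies Notch receptors, was lower (log2 fold change -0.88 ± 0.13 SE, edgeR adjusted p = 3.16e-06). Dtx1, another Notch target, had been used to choose the cells and was not tested. The 250 bases before the start of Hes5 (RefSeq, GRCm38.p6, plus strand, chr4:154960673-154960922) are printed because Hes5 was the most changed Notch target outside the rule, with matches to TGGGAA, the core of the RBPJ motif, and to its reverse complement TTCCCA in capitals.
Hes5 promoter: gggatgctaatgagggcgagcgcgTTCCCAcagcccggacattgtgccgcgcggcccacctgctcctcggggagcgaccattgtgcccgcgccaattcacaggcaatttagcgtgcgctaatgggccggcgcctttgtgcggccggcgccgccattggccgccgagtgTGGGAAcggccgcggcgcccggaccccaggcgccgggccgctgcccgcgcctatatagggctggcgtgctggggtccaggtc
Matches lay 226 to 221 and 82 to 77 bases before the start, 1 on each strand. Of 32851 RefSeq promoters of the same length, 21.6% held at least 1 match on either strand and 2.77% held 2 or more. The matches describe the letters and do not show binding.

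Of 27 genes of migration and retention, 17 were lower (63.0%, beside 21.5% over all genes), and 5 were higher (18.5%, near the 17.0% over all genes). The S1P receptor gene S1pr1, which with S1pr3 holds MZ B cells against the pull of the follicle, stood at 265, 388, 292, 319.8, and 301 CPM in MZ B cells and at 163, 229.9, 162, 187, and 167 CPM in Fcer2a+ B cells (log2 fold change 0.79 ± 0.03 SE, edgeR adjusted p = 8.67e-18), while S1pr4 was 1.98-fold lower. The chemokine-scavenging receptor gene Ackr3 was found at 8.77 ± 2.61 CPM in MZ B cells and 0.956 ± 0.517 in Fcer2a+ B cells, and the CXCL12 receptor gene Cxcr4 at 29.2 ± 6.23 and 68.2 ± 8.48. Gpr183, the oxysterol receptor gene EBI2 that guides B cells to the outer follicle, and Ccr6 were 1.42-fold and 1.39-fold lower. Among 28 integrin and adhesion genes, 13 were higher and 12 lower (46.4% and 42.9%, beside 17.0% and 21.5%). Against Fcer2a+ B cells with at least 2 of the 6 genes 5 of 27 were higher and 10 lower, where 1005 and 1291 of all 9967 genes tested passed. Itgb1 and Itgal, which encode the β1 chain and the αL chain of LFA-1 that anchor MZ B cells, were 1.99-fold and 1.34-fold higher, while Itgb7 and Itga6 were 1.99-fold and 2.06-fold lower.

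Of 36 genes of antigen receptor signaling, 15 were higher and 15 lower (41.7% each, beside 17.0% and 21.5% over all genes). The phosphatase gene Ptpn22, which restrains antigen receptor signals, stood at 97.6, 86.5, 91.2, 80.1, and 87.6 CPM against 38.4, 31.9, 37.5, 31.1, and 36.4 CPM (log2 fold change 1.33 ± 0.05 SE, edgeR adjusted p = 3.70e-18). The kinase gene Blk, the transcription factor gene Nfatc1, and Malt1, part of the complex that links the receptor to NF-κB, were 1.49-, 1.505-, and 1.42-fold higher, and the Ras activator gene Rasgrp3 was 1.82-fold lower. Of 29 innate sensing genes, 10 were higher and 6 lower (34.5% and 20.7%, beside 17.0% and 21.5% over all genes), with a median of 0.07. Against all other B cells with an Fcer2a UMI, a class that keeps cells with Lyz2 UMIs, 10 of 30 were higher and 8 lower. Tlr3, the sensor of double-stranded RNA, stood at 12.8 ± 2.53 CPM in MZ B cells and 2.84 ± 0.741 in Fcer2a+ B cells (log2 fold change 2.16 ± 0.17 SE, edgeR adjusted p = 3.10e-11). Tlr7, a sensor of single-stranded RNA, was 1.91-fold higher, and the LPS coreceptor gene Ly96 3.04-fold. Cd180 and Ly86, whose products form a surface complex related to the LPS receptor, were 1.52-fold and 1.35-fold higher. Of 5 complement genes outside the rule, 2 were higher and 2 lower, with Cfp, which encodes properdin, at 2.17-fold higher and Cd55 lower as above.

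Of 18 class II presentation genes, 1 was higher and 12 were lower by small amounts (5.56% and 66.7%, beside 17.0% and 21.5% over all genes). The class II chain gene H2-Aa stood at 2648 ± 88.6 CPM in MZ B cells and 3236 ± 103 in Fcer2a+ B cells (log2 fold change -0.29 ± 0.02 SE, edgeR adjusted p = 4.49e-15). Cd74, the invariant chain gene, was 1.21-fold lower and H2-Ob, a subunit of the class II loading inhibitor, 1.62-fold lower, while the protease gene Lgmn was 1.57-fold higher. Of 16 costimulatory genes, 4 were higher and 8 lower (25% and 50%, beside 17.0% and 21.5% over all genes). With TMM or DESeq2, 4 were higher and 6 lower, and without the library block 4 and 5. Cd86, a CD28 ligand that MZ B cells are known to upregulate fast, stood at 103, 82.5, 82.4, 66.4, and 67.9 CPM against 57.8, 45.5, 53.2, 38.7, and 40.3 CPM (log2 fold change 0.76 ± 0.05 SE, edgeR adjusted p = 8.21e-13), and Cd274, which encodes PD-L1, was 2.05-fold higher. Icosl and Cd200 were 1.52-fold and 2.55-fold lower. In the NF-κB and BAFF pathway, 13 of 27 genes were lower (48.1%, beside 21.5% over all genes), such as the inhibitor gene Nfkbia (1.49-fold). The 5 higher genes, among them the adaptor gene Traf1 (1.57-fold), made up 18.5% of the list, near the 17.0% over all genes.

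Of 21 immediate early genes, 13 were lower (61.9%, beside 21.5% over all genes), and 3 were higher (14.3%, near the 17.0% over all genes). Jund stood at 653, 663, 616, 705, and 634 CPM in MZ B cells and 1107, 1185, 1099.5, 1176, and 1098 CPM in Fcer2a+ B cells (log2 fold change -0.79 ± 0.02 SE, edgeR adjusted p = 1.25e-21), and Junb and Ier2 were 1.66-fold and 1.78-fold lower. These genes also respond to dissociation, and the part of handling in the difference was not tested. Of 24 interferon-stimulated genes, 5 were higher, such as Isg15 (2.43-fold), and 6 were lower (20.8% and 25%), shares near the 17.0% and 21.5% over all genes. The balance turned with at least 3 of the 6 genes (8 higher and 6 lower), with thinned cells (7 and 4 of 23), without library 4 (7 and 5), without the library block (4 and 3), and against Fcer2a+ B cells with at least 2 of the 6 genes (5 and 3). Among 38 transcription factors of the B lineage, 14 were higher and 17 lower (36.8% and 44.7%). Id2 and Id3, related inhibitors of E proteins, went in opposite directions, at 1.61 ± 0.14 and -0.72 ± 0.04 on the log2 scale. Zbtb20, which supports long-lived antibody secretion, was 1.61-fold higher, and Lmo2 was 1.98-fold lower. Of 9 B-1 cell genes, Zbtb20 among them, 6 were higher and 1 lower, at summed levels of 528 ± 33.7 against 391 ± 15.4 CPM. Against all other B cells with an Fcer2a UMI, those with Cd93, Cd3, or Lyz2 UMIs included, 3 of 10 genes of that list were higher and 4 lower. The rule bars cells with Cd3 or Lyz2 UMIs from MZ B cells but not from that class. Genes that T or myeloid cells share with the list may thus be lowered by the gate, so this count cannot decide about the B-1 calls.

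Growth and secretory genes were higher in the sums, but these lists changed with depth or with the removal of cells that held UMIs of other cell types. Of 40 endoplasmic reticulum and secretory genes, 20 were higher and 3 lower (50% and 7.5%, beside 17.0% and 21.5% over all genes). The disulfide isomerase gene Pdia4 stood at 282, 281, 279.8, 276, and 256 CPM in MZ B cells and 124, 118, 109, 103, and 112 CPM in Fcer2a+ B cells (log2 fold change 1.28 ± 0.04 SE, edgeR adjusted p = 6.95e-21), and the chaperone gene Hspa5 was 1.25-fold higher. With at least 3 of the 6 genes the counts were 12 and 7, and with thinned cells 7 and 4. Myc, a driver of cell growth, stood at 96.1, 75.7, 88.9, 55.4, and 45.0 CPM against 36.9, 30.6, 38.6, 20.1, and 22.7 CPM (log2 fold change 1.27 ± 0.06 SE, edgeR adjusted p = 8.97e-16). In the list of Myc and ribosome biogenesis genes, 19 of 30 were higher and none was lower, but within cells of 2000 to 5000 UMIs 5 were higher and 2 lower. Cell cycle genes showed the same limit: 15 of 23 were higher and 2 lower, whereas within cells of 2000 to 5000 UMIs none of 17 was higher and 6 were lower. Mki67, a marker of cycling cells, was found in 2.82% of MZ B cells and 1.02% of Fcer2a+ B cells, in 1.45% and 0.702% after thinning, and in 0.784% of thinned T cells. Of 9 plasma cell genes, 6 were higher and 2 lower, and Jchain, which joins IgM pentamers, stood at 22.3, 310.0, 339.7, 711, and 3.82 CPM in MZ B cells, with 98.2% of its UMIs in 10 cells. Without cells that held UMIs of other cell types or 5 Jchain UMIs, 3 of 8 plasma cell genes were higher and 1 lower, and with thinned cells 1 of 6 was higher and 2 lower. Germinal center genes were few, with 1 of 6 lower and none higher.

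**Figure D5:**
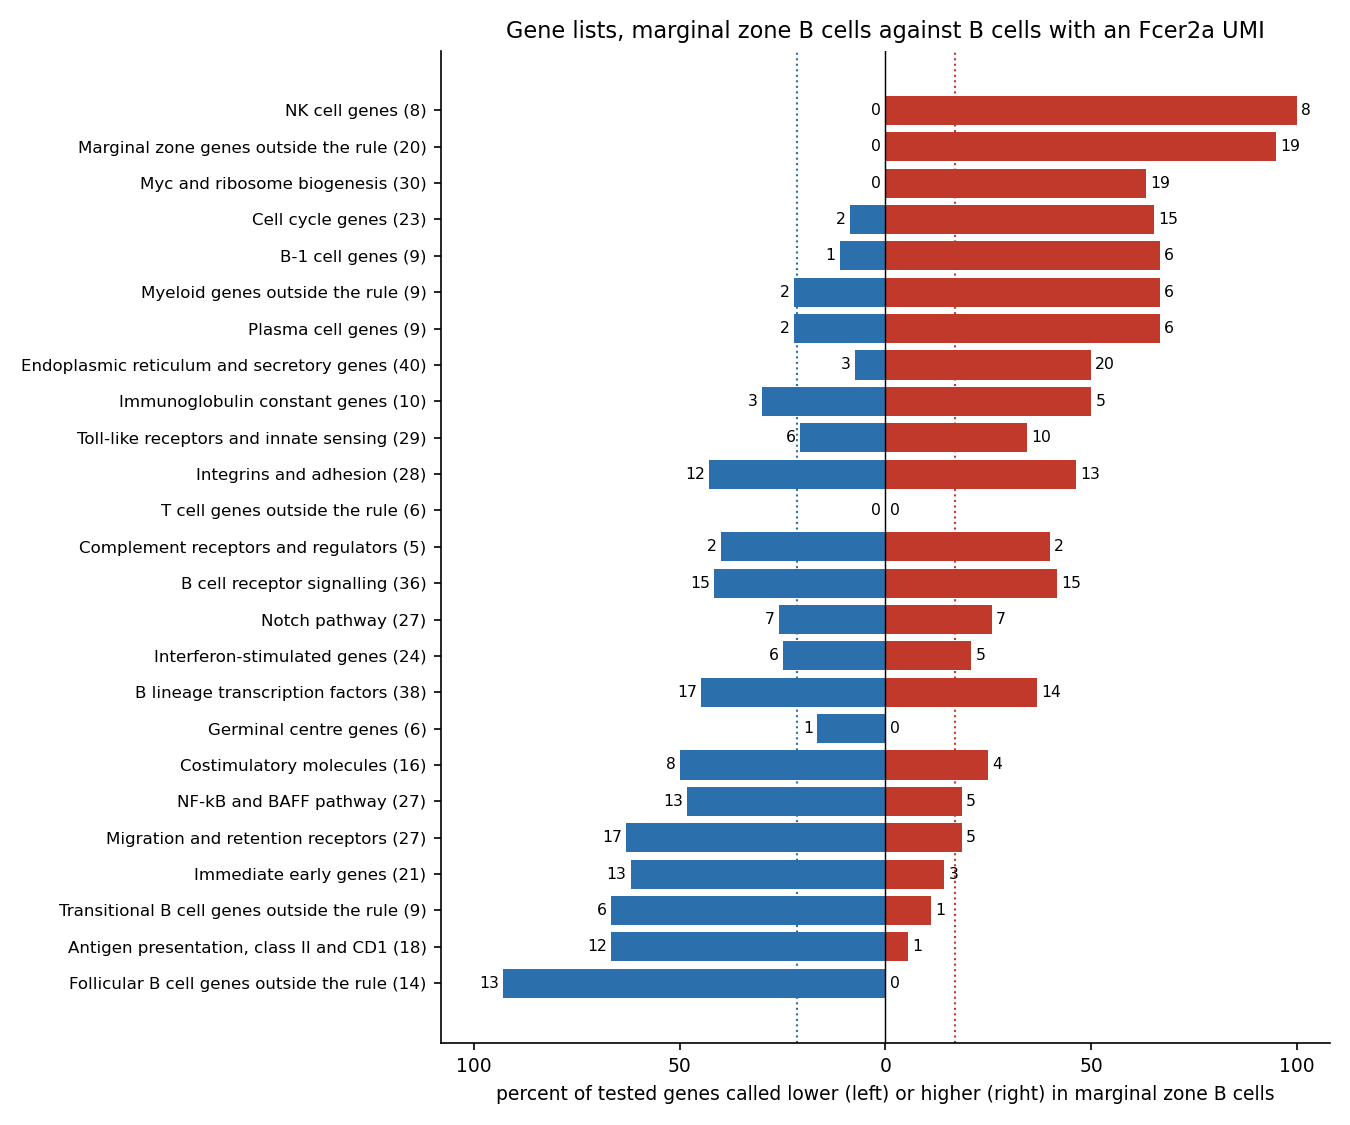
Number of genes higher (red) and lower (blue) in MZ B cells than in B cells with an Fcer2a UMI for each gene list with at least 5 genes tested, as a share of those genes (percent; counts beside the bars, genes tested in parentheses). Over all genes tested, 17.0% were higher and 21.5% lower; dotted lines mark these shares, 19 of 20 MZ genes were higher, and 13 of 14 follicular genes were lower.

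MZ B cells were then compared with Cd93+ B cells, a class that holds newly formed B cells and is smaller, with 112 to 187 cells per library. The 2 comparisons share the MZ libraries and are not independent. Of 8829 genes tested, 699 (7.92%) were higher and 1160 (13.1%) lower in MZ B cells, with a median of -0.06; with TMM scaling the counts were 854 and 886, so here too the balance depended on the scaling. Immunoglobulin genes took 5.28 ± 1.30% of the UMIs of Cd93+ B cells and 1.57 ± 0.269% of those of MZ B cells, and without them in the totals 597 genes were higher and 1549 lower. Cd93 is also carried by plasma cells, and the summed plasma cell genes stood at 3965 ± 1006 CPM in Cd93+ B cells and 740.0 ± 338 in MZ B cells. Among genes of at least 50 CPM that moved alike in every library, Jchain had the largest decrease (log2 fold change -4.32 ± 0.40 SE, edgeR adjusted p = 7.50e-12). Antigen receptor, mitochondrial, ribosomal protein, Gm, and Rik genes were left out of that ranking. A Jchain UMI was found in 34 Cd93+ B cells, of which 25 held more than 4. Of 9 plasma cell genes, 1 was higher and 7 were lower in MZ B cells, with a median log2 fold change of -1.35. Without the cells that held UMIs of other cell types or 5 Jchain UMIs, 1 of 5 was higher and 2 were lower, with a median of 0.11, and within cells of 2000 to 5000 UMIs the counts were the same with a median of 0.19.

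Transitional B cell genes were lower in MZ B cells, with 7 of 9 lower (77.8%, beside 13.1% over all genes) and none higher. Vpreb3, a surrogate light chain-related gene of early B cells, stood at 116, 136, 123, 114, and 144 CPM in MZ B cells and at 452, 518, 379, 459, and 497 CPM in Cd93+ B cells (log2 fold change -1.86 ± 0.07 SE, edgeR adjusted p = 1.53e-24). The transcription factor genes Sox4 and Myb, which are active in B cell precursors, were 7.36-fold and 4.13-fold lower. Akap12, Ly6c2, Eaf2, Hivep3, Pafah1b3, and Ehd4 were also among the 10 largest decreases, and Txndc5, of the secretory pathway, was 3.90-fold lower. The same genes against Fcer2a+ B cells gave log2 fold changes of -0.98 ± 0.04 for Vpreb3, -1.62 ± 0.13 for Sox4, and 0.13 ± 0.13 for Myb, of which Myb did not pass (log2 fold change 0.13 ± 0.13 SE, edgeR adjusted p = 0.485). In that comparison, 6 of 9 transitional genes were lower (66.7%, beside 21.5% over all genes). The 1 higher gene (11.1%) was below the 17.0% over all genes.

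Genes of the MZ list were higher than in Cd93+ B cells as well, 16 of 19 with none lower and a median of 1.51. Over all genes, 7.92% were higher and 13.1% lower. Myof stood at 10.6, 18.1, 11.4, 15.2, and 28.4 CPM in Cd93+ B cells (log2 fold change 2.42 ± 0.16 SE, edgeR adjusted p = 3.06e-16), and Fcrl5 at 18.5, 15.5, 21.1, 21.5, and 9.46 CPM (log2 fold change 2.43 ± 0.15 SE, edgeR adjusted p = 9.11e-17). AW011738 (8.83-fold), Nebl (7.30-fold), and Pik3r4, a subunit of a lipid kinase of autophagy (3.86-fold), were also among the largest increases, and Ptpn14, Atxn1, Dph5, Ahr, and Mfhas1 completed the 10. Plac8 was 1.65-fold higher, with Cd93+ B cells at 750.3 ± 99.6 CPM, and Mzb1 did not pass (log2 fold change -0.11 ± 0.06 SE, edgeR adjusted p = 0.245). Of the 14 follicular genes, 11 were lower and 1, Cxcr5, was higher (log2 fold change 0.61 ± 0.10 SE, edgeR adjusted p = 3.25e-06). Bach2 stood at 172, 226, 240.0, 214, and 233 CPM in Cd93+ B cells (log2 fold change -1.58 ± 0.08 SE, edgeR adjusted p = 7.33e-20).

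The other lists were compared with Cd93+ B cells in the same way, beside 7.92% higher and 13.1% lower over all genes tested. Hes5 was 2.27-fold and Hes1 1.89-fold higher in MZ B cells, and 3 of 25 Notch genes were higher and 1 lower (12% and 4%). Migration receptors numbered 6 higher and 10 lower of 25, with Ccr6 1.57-fold higher in MZ B cells. For class II genes the counts were 7 higher and 2 lower of 17. They were 4 and 2 without library 5, and 4 and 3 without the cells that held UMIs of other cell types. H2-Aa was 1.19-fold higher, so that MZ B cells stood between Cd93+ and Fcer2a+ B cells in the level of H2-Aa. Of 35 antigen receptor genes, 11 were higher and 9 lower, but without the cells that held UMIs of other cell types 9 of 34 were higher and 14 lower. Of 24 innate sensing genes, 5 were higher and 2 lower, among them Tlr3, Tlr7, Cd180, and Ly86. Traf1 (3.07-fold) and Cd86 (2.24-fold) were higher, in lists with 6 of 26 NF-κB and BAFF genes higher and 4 lower and 5 of 15 costimulatory genes higher and 6 lower. The costimulatory counts were 3 higher and 6 lower without library 4, and 3 and 5 with DESeq2. Cell cycle genes were lower in 9 of 21 cases and higher in 1, and Mki67 stood at 39.6, 132, 180.0, 128, and 112 CPM in Cd93+ B cells against 56.1, 35.3, 42.2, 50.1, and 28.1 CPM in MZ B cells (log2 fold change -1.55 ± 0.15 SE, edgeR adjusted p = 5.63e-11), although MZ B cells were higher in library 1. Some 10 cells held 77.3% of the Mki67 UMIs of the Cd93+ class, and within cells of 2000 to 5000 UMIs 3 of 13 cell cycle genes were lower and 0 higher. Of 39 endoplasmic reticulum genes, 1 was higher and 24 lower, but without cells that held UMIs of other cell types or 5 Jchain UMIs, 5 were higher and 3 lower. Immediate early genes were lower in 11 of 18 cases and higher in 1. Genes of the Myc and ribosome biogenesis list were higher in 11 of 30 cases and lower in none, with 2 higher within cells of 2000 to 5000 UMIs. Leaving out library 2 gave 6 higher, library 3 gave 7, and library 1 gave 14. Of 25 integrin genes, 3 were higher and 4 lower (12% and 16%), and of 20 interferon-stimulated genes, 2 were higher and 4 lower (10% and 20%), shares near those over all genes. Further lists gave 7 transcription factors higher and 19 lower of 35, 2 B-1 cell genes higher and 3 lower of 7, and 1 immunoglobulin constant gene higher and 6 lower of 8. Of 5 NK cell genes, 3 were higher and 0 lower, but 1 was higher without library 4 or without the library block, 2 without library 1, and 4 without library 3. The smallest lists gave 1 myeloid gene higher and 1 lower of 6, 1 and 1 of 4 complement genes, and 1 and 1 of 2 plasmacytoid dendritic cell genes. Both germinal center genes tested were lower, 0 of 2 T cell genes passed, and the single erythroid gene tested was higher, a call lost with DESeq2, without the library block, without library 1, and within cells of 2000 to 5000 UMIs, and turned to lower without the cells that held platelet, erythroid, plasma cell, or neutrophil UMIs.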

How the data were processed

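The naive spleen CD45+ matrix and the rejecting kidney CD45+ matrix were used; CD45+ matrices of accepted grafts and recipient spleens were not analysed here. The authors aligned reads to mm10 with Cell Ranger (per the submitters' processing notes; the version was not given in the sources used here), removed cells by UMIs, genes, and mitochondrial content at limits not given in the sources used here, and deposited raw UMI counts of 17644 genes. No values of the authors' own comparisons were used, and the deposited CD8 T cell matrix of naive spleen held 0 of the MZ B cells. The members, gene lists, and tests were chosen with earlier results of these data known.

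Cells were classed by the rule in the text. Leaving out cells with Cd3 or Lyz2 UMIs removed 3133 of 31545 cells with 2 Cd79 UMIs, and no doublet caller was run. UMIs were summed per class and library (2832638 to 4003331 for MZ B cells). Genes that passed edgeR's filter on low counts were tested with edgeR 4.0.16 (R 4.3.3, quasi-likelihood test, plain library totals as scaling), with the library as a block, since the same 5 libraries supplied every class. The 14 genes of the rule were not tested. The SE of an edgeR log2 fold change is its size divided by the square root of the test's F statistic. It thus restates the test and is no separate estimate of spread. A call was an adjusted p below 0.05, and a p value that missed it does not show that values were equal. Genes were named by rule: in each comparison, the top 10 in either direction by log2 fold change, provided that they passed the test, reached 50 CPM in the class where they were higher, and moved alike in every library (Gm and Rik symbols and genes of mitochondria, ribosomal proteins, and antigen receptors left out); genes of the 29 lists could also be named. Intervals of shares are exact Clopper-Pearson and cover counting error only. B cells were clustered with scanpy (2000 variable genes, 30 principal components, Leiden resolution 0.8). Alternatives were TMM scaling, totals without immunoglobulin genes, DESeq2 1.42.0, no filter on low counts, no block, each library left out, other gates, depth windows, thinning to 2000 UMIs, and removal of cells with UMIs of other cell types.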

Additional observations from a re-analysis of the deposited data

Results flagged for a closer look

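In 12 of 235 sets of 5 libraries examined, 1 library stood far from the other 4 (Dixon's test at the 95% level, which chance meets in about 1 of 20 sets). In MZ B cells, library 4 had the highest lambda share of light chain UMIs, at 42.5%, and the lowest levels of Tm6sf1 (339 CPM), Notch2 (48.7 CPM), and Maml2 (20.1 CPM). Library 2 had the lowest Plac8 level of the MZ B cells (1147 CPM) and the highest levels of Hes1 (113 CPM) and Cd200 (25.2 CPM). Library 5 had the lowest levels of Pdia4 (256 CPM) and Junb (86.5 CPM) in MZ B cells. In Fcer2a+ B cells, library 2 had the highest Notch2 level (78.8 CPM), and library 5 had the lowest Cd69 level (342 CPM) and the highest Mfhas1 level (19.8 CPM).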

How the results depend on the processing

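Of 110 named genes, 105 passed the test against Fcer2a+ B cells, and 93 of these passed in the same direction in each of the 21 alternatives that tested them; against Cd93+ B cells the numbers were 87 of 106 genes, with 73 in each of 18 alternatives. Several gates were added after seeing the data: Fcer2a+ B cells with at least 2 of the 6 genes, 2 further Leiden resolutions (46.6% and 51.8% of MZ B cells in the leading cluster), and 2 of the 3 removals of cells with UMIs of other cell types. Against Fcer2a+ B cells, 1809 genes were higher and 2282 lower; DESeq2 gave 1253 higher and 1159 lower, thinned cells 1126 and 1496, and Fcer2a+ B cells with at least 2 of the 6 genes 1005 and 1291. Without the library block, which pairs the classes, 1395 were higher and 1708 lower, and leaving out 1 library gave 1569 to 1677 and 1941 to 2038. Against Cd93+ B cells (699 and 1160), DESeq2 gave 479 higher and 509 lower, cells of 2000 to 5000 UMIs 450 higher and 841 lower, and thinned cells 332 and 579; without the block the counts were 595 and 1015, and leaving out 1 library gave 532 to 644 and 841 to 1083. The share of MZ B cells among B cells was 14.5% to 15.8% without 1 library and 8.31% with at least 3 genes. The share of calls that were higher moved from 44.2% to 52.6% with TMM scaling and 51.9% with DESeq2 against Fcer2a+ B cells. Against Cd93+ B cells it moved from 37.6% to 49.1% with TMM, 48.5% with DESeq2, and 27.8% without immunoglobulin genes in the totals. These named genes changed sign, as log2 fold changes. Against Fcer2a+ B cells, within 2000 to 5000 UMIs Top2a was -0.033 and Jchain -0.24. With thinned cells Jchain was -1.47, and without platelet, erythroid, plasma cell, or neutrophil UMIs -0.0046. S100a8 was -2.34 against all other Fcer2a B cells, a class that keeps cells with Lyz2 UMIs. Against Cd93+ B cells, Edem1 was 0.50 within 2000 to 5000 UMIs, 0.44 thinned, and 0.21, 0.23, and 0.37 without cells of other types, and Xbp1 was 0.19, 0.27, 0.31, 0.29, and 0.36 in the same order. The cause was not tested. No other named gene that had passed the test changed sign, and named genes that had not passed were not examined for sign. MZ B cells were deeper than Fcer2a+ B cells (median 3536 against 2685 UMIs), and the 756 Cd93+ B cells limit that comparison.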
